A study of Homo sapiens with 47 samples.

Results

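The 2 mature strands of miR-338, hsa-miR-338-5p and hsa-miR-338-3p, were followed across 47 small RNA libraries of 2 prostate cancer cell lines, as 2 of the 1006 miRNA entries in the count table. They were chosen by name, with their hypoxia response in these libraries already known. That response is therefore given as a description without a p-value. P-values are given only for contrasts other than that response. These contrasts use the same normoxia libraries, so their independence from the choice is not shown. Where calls of a fit over all miRNAs are counted for the hypoxia contrast, nothing is read from them.

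The labels give a bone metastasis as the origin of PC-3, and for 22Rv1 a subline of the xenograft CWR22R. By general knowledge PC-3 lacks the androgen receptor and 22Rv1 expresses it. Each line was kept for 24 hours at 5%, 2%, 1%, 0.5%, 0.2% or 0% O2, and each level had its own normoxia control in 95% air, which makes 24 groups of line, condition and level. Every group held 2 libraries, except the 22Rv1 control for 0.2% O2, which held 1 here. Each line stands for 1 cell line only, the exposure was a single time point, and the labels speak of duplicates without saying whether these were separate cultures, so the spread between them may be technical. RNA came from whole cultures, and a change in every cell cannot be told apart from a larger change in some of the cells.

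A miRNA gene is transcribed as a hairpin, from which Dicer cuts a duplex of a 5p and a 3p strand. Usually 1 strand of the duplex is kept by an Argonaute protein, and its seed, bases 2 to 8, pairs with target mRNAs. miR-338-3p is best known from the nervous system, where it acts with miR-219 in the maturation of oligodendrocytes. Its gene lies in an intron of AATK, the gene of apoptosis-associated tyrosine kinase, and the gene MIR3065 lies opposite it on the other strand.

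The sequences below are those of RefSeq on GRCh38.p14, 5′ to 3′, with the seed in capitals, and are shown because the 2 arms of miR-338 differ in seed and because both have a near mirror image on the other strand.
hsa-miR-338-5p: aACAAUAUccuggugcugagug
hsa-miR-338-3p: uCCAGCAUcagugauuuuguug
hsa-miR-3065-5p: uCAACAAAaucacugaugcugga
hsa-miR-3065-3p: uCAGCACCaggauauuguuggag

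The miR-338 hairpin is shown whole, with its mature arms in capitals, since the balance of these arms is the subject of several results.
MIR338: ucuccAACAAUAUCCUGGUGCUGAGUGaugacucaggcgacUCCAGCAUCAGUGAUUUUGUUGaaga

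MIR338 occupies chr17:81125883-81125949 on the minus strand, with miR-338-5p at chr17:81125923-81125944 and miR-338-3p at chr17:81125887-81125908. In GENCODE 29, 6 of 11 AATK transcripts span the hairpin and 0 have an exon there, so it is intronic and on the strand of AATK. MIR3065 covers chr17:81125877-81125955 on the plus strand. miR-338-3p and miR-3065-5p are complementary over 22 bases, and miR-338-5p and miR-3065-3p over 19 bases. None of the 868 table entries that matched a RefSeq mature sequence by name, out of 1006, shared a seed with any of these 4 arms, so neither miR-338 arm has a seed family member among them. The count table holds no entry for the other miRNAs of this locus, miR-657 and miR-1250.

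**Figure D1:**
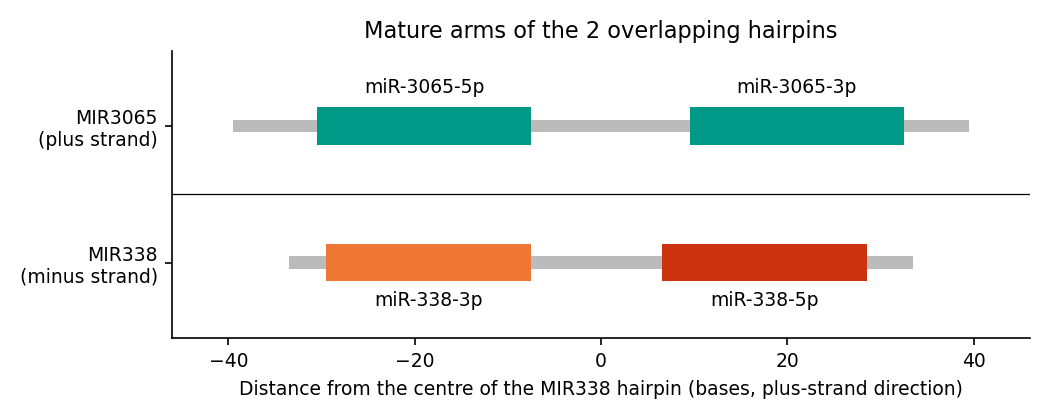
Map of the overlapping hairpins MIR338 (lower row, minus strand) and MIR3065 (upper row, plus strand), with the mature arms as coloured blocks, the hairpins as grey bars, and the distance from the centre of MIR338 in bases on the horizontal axis. Each miR-338 arm lies opposite 1 miR-3065 arm, with 22 and 19 shared bases.

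Libraries held 1742290 to 4327382 counts in PC-3 and 960421 to 3181344 in 22Rv1. Values are CPM, counts per 1000000 counts of a library, after TMM scaling, which sets library totals so that most miRNAs do not differ. In 22Rv1, 3 libraries stood apart on the first principal component, namely hypoxia and normoxia replicate 1 of the 5% set and hypoxia replicate 1 of the 0.5% set. The first 2 of these were also the shallowest libraries of all, with 1035470 and 960421 counts. Hypoxia replicate 2 of the 0.2% set lay farthest toward the opposite end (-7.04, against 10.35 to 12.55) and was not among the 3. Over all miRNAs the 0.2% hypoxia replicates differed by a chi-square of 204.7 per degree of freedom, and the 5% controls by 233. The other 22Rv1 groups had 22.8 to 92.2. The epithelial markers (miR-200c-3p, miR-141-3p, miR-200b-3p, miR-429 and miR-205-5p) summed to 7043 to 9529 CPM in PC-3 and 23234 to 59615 CPM in 22Rv1. Single members of that list are not given, and the sum does not show whether each of them went the same way. miR-200a-3p of the miR-200 family was not on the list and went against the sum. It had 1856 ± 89.6 CPM in PC-3 normoxia and 37.9 ± 14.3 CPM in 22Rv1 normoxia (SD, n = 12 and 11). Neural markers (3 of 4 in the table) summed to 418 to 619 CPM in 22Rv1 normoxia and 346 to 639 CPM in 22Rv1 hypoxia, so the neural list did not separate the conditions. Blood markers (3 of 3 in the table) summed to 1253 to 2426 CPM and 801 to 2646 CPM in the same libraries, and smooth muscle or stromal markers (5 of 5) to 101 to 236 CPM and 33.7 to 511 CPM. In PC-3 the smooth muscle or stromal list had medians of 25.95 CPM in normoxia and 35.8 CPM in hypoxia, and reached 1469 and 1390 CPM in replicate 1 of the 5% set. The neural marker miR-124-3p was at 0 in every PC-3 hypoxia library, while in 22Rv1 no marker of these lists was at 0 throughout a condition. The part of these lists in the results was not tested.

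miR-338-5p, the 5p strand, stood higher in hypoxia than in normoxia in 22Rv1 and was barely counted in PC-3. In 22Rv1 normoxia it had 4.84 ± 2.72 CPM (SD, n = 11), with a lowest value of 2.13, a median of 3.80 and a highest of 10.7 CPM. In 22Rv1 hypoxia it had 23.4 ± 12.1 CPM (SD, n = 12), from 11.8 through a median of 21.2 to 57.2 CPM. The lowest hypoxia library lay above the highest normoxia library, so the conditions did not overlap. The raw counts behind these values were 3 to 29 per normoxia library and 15 to 168 per hypoxia library. Scaled by library size alone, the nearest values were 12.8 CPM in normoxia and 14.5 CPM in hypoxia, again without overlap. Of the 552 miRNAs that reached 5 CPM in at least 2 libraries of 22Rv1, 2 (0.362%) had all hypoxia libraries above all normoxia libraries. These were miR-338-5p and miR-210-3p, a known hypoxia-induced miRNA, and since the choice of miR-338-5p rested on this contrast, nothing is read from the share. miR-338-5p itself passed that limit through 17 libraries, of which 5 were normoxia.

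At 5% O2 miR-338-5p had 3.80 and 2.13 CPM in the normoxia replicates 1 and 2, and 16.3 and 11.8 CPM in the hypoxia replicates. At 2% O2 it had 7.96 and 5.48 CPM in normoxia, and 17.5 and 16.8 CPM in hypoxia. At 1% O2 it had 2.90 and 10.7 CPM in normoxia, and 27.5 and 28.02 CPM in hypoxia. The hypoxia replicates were close together at 2% and 1%, while the 1% controls differed among themselves more than those of any other set.

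At 0.5% O2 the controls gave 2.81 and 2.86 CPM, and the hypoxia libraries 19.7 and 22.7 CPM. At 0.2% O2 the single control gave 2.99 CPM, and the hypoxia libraries 57.2 and 12.01 CPM. At 0% O2 the controls gave 4.48 and 7.15 CPM, and the hypoxia libraries 25.8 and 25.7 CPM. Hypoxia lay above normoxia at every level, and the 0.2% replicates were the only hypoxia pair far apart, with replicate 1 the highest library of all.

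**Figure D2:**
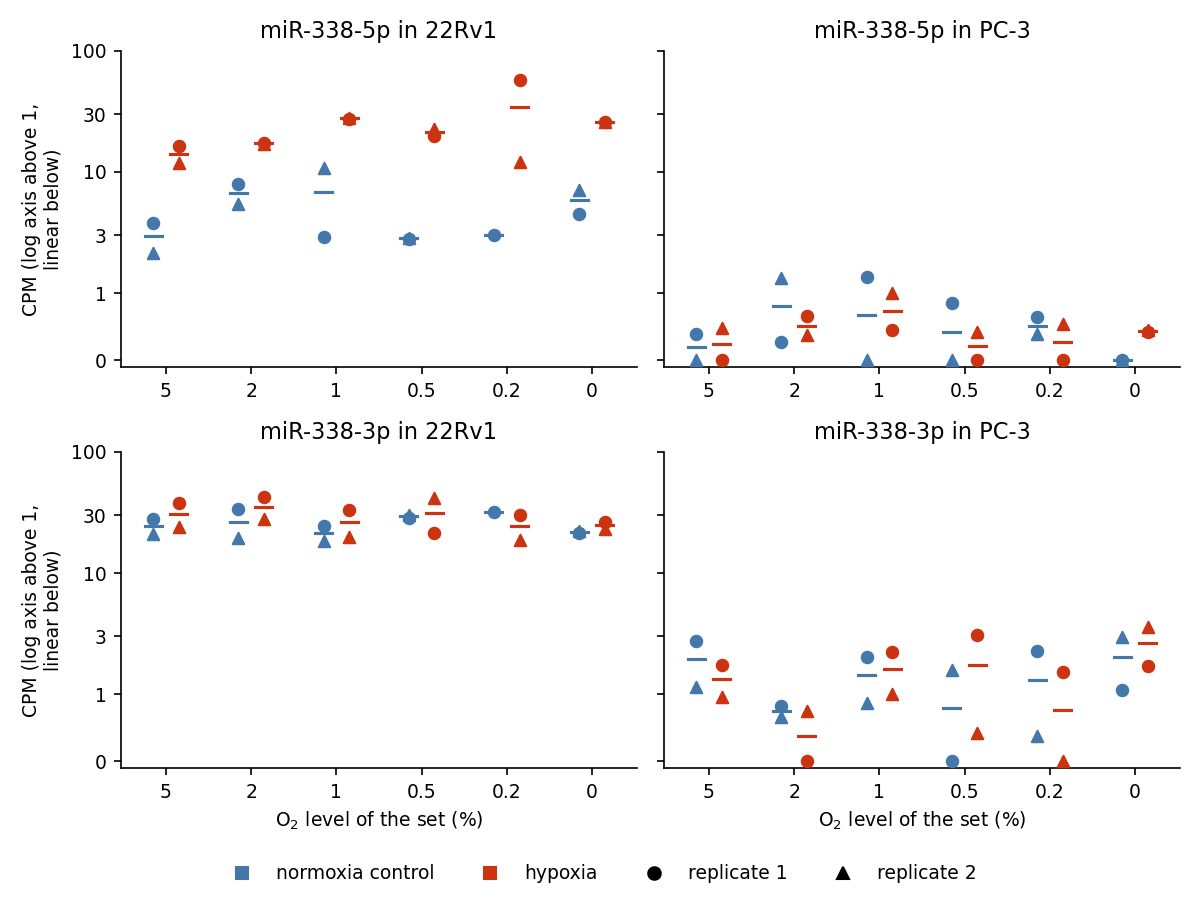
CPM of miR-338-5p (upper panels) and miR-338-3p (lower panels) in each library of 22Rv1 (left) and PC-3 (right) by the O2 level of the set, on an axis that is logarithmic above 1 CPM and linear below. Points are libraries (circles replicate 1, triangles replicate 2), short bars group means, blue normoxia and red hypoxia. The red points of miR-338-5p lie above all blue points in 22Rv1, from 11.8 CPM upward, while miR-338-3p overlaps.

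Ordered by mean CPM in 22Rv1 hypoxia, miR-338-5p was lowest at 5% O2 (14.0 ± 3.21, SD, n = 2) followed by 2% (17.2 ± 0.433), 0.5% (21.2 ± 2.08), 0% (25.8 ± 0.0296), 1% (27.7 ± 0.384) and 0.2% O2 (34.6 ± 31.9). The steps between neighbours were 0.11 to 0.32 on the log2 scale. The pooled SD between replicates was 0.69, over the 11 groups of 22Rv1 with 2 libraries, normoxia included. The wide 0.2% hypoxia pair enters that SD, and several groups in this order had far smaller SDs. Whether neighbours differ was not tested. The ends of the order differed by 1.30. The order did not follow the O2 level.

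Within the 11 pairs of 22Rv1 libraries that share a level and replicate number, miR-338-5p was higher in hypoxia in 11. The ratio of hypoxia to normoxia ranged from 2.19 in replicate 1 at 2% O2 to 19.1 in replicate 1 at 0.2% O2, with a median of 5.52. In the edgeR fit with 1 mean per group, the mean log2 change over the 6 levels was 2.37 (SE 0.285). It was the highest of the 552 values, whose median was 0.01, and since the arm was chosen with this response known, nothing is read from that rank. The change was 2.38 without the 3 libraries that stood apart. By level the log2 change was 2.29 (SE 0.89) at 5% O2, 1.30 (SE 0.59) at 2%, 2.11 (SE 0.58) at 1%, 2.86 (SE 0.67) at 0.5%, 3.50 (SE 0.83) at 0.2% and 2.13 (SE 0.59) at 0%. The slope over the ordered levels was 0.187 per step toward 0% O2 (SE 0.194), smaller than its error.

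At an adjusted p under 0.05 over all 552 miRNAs, the fit called 1 of the 2 arms, miR-338-5p, higher in the mean over levels, where 7.61% of all miRNAs were called higher. At single levels it was called at 2 of 6, 0.5% and 0% O2, where 1.81% and 3.44% of all miRNAs were called higher. At the other levels that share was 0% at 5% O2, 0.362% at 2%, 0.725% at 1% and 0.725% at 0.2%. With the replicate pair as a block it was called at 5 of 6 levels, all but 5% O2. The block also called more of all miRNAs higher: 15.9% in the mean, 0.181% and 1.09% for the sets of 5% and 2% O2, 2.54% and 9.96% for those of 1% and 0.5%, and 2.36% and 5.98% for those of 0.2% and 0%. Without the 3 libraries that stood apart, miR-338-5p was called in the mean and at 0 of 6 levels. The share of all miRNAs called is not given for that setting, in the mean or at single levels, so these calls cannot be set against it. These counts use the contrast by which the arms were chosen, and nothing is read from them. Single libraries weighed on 2 of the level values: without the 57.2 CPM library the change at 0.2% O2 was 2.03, and without control replicate 2 the change at 1% O2 was 3.24.

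miR-338-3p, the strand usually studied, did not separate the conditions in 22Rv1. It had 25.4 ± 5.29 CPM in normoxia (SD, n = 11), from 18.5 through a median of 24.5 to 33.5 CPM. In hypoxia it had 28.9 ± 8.24 CPM (SD, n = 12), from 18.9 through a median of 27.0 to 42.0 CPM. Of the 12 hypoxia libraries 9 lay at or below the highest control, so the ranges overlapped over most of their length. Raw counts were 22 to 117 and 35 to 130 per library, deeper than those of the 5p arm.

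miR-338-3p was higher in hypoxia in 9 of 11 pairs, with ratios from 0.745 to 1.43 and a median of 1.22. The exceptions were replicate 1 at 0.5% O2, with 28.6 CPM in normoxia and 21.3 CPM in hypoxia, and replicate 1 at 0.2% O2, with 32.0 and 30.3 CPM. The mean log2 change over levels was 0.14 (SE 0.142), rank 167 of 552, and it was called neither in the mean nor at any level. Without the 3 libraries that stood apart the mean change was 0.17. Level values ran from -0.37 at 0.2% O2 to 0.37 at 1% O2.

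Ordered by mean CPM in 22Rv1 hypoxia, miR-338-3p ran from 24.6 ± 8.07 at 0.2% O2 (SD, n = 2) to 35.0 ± 9.99 at 2% O2. Neighbours in this order differed by 0.01 to 0.23 on the log2 scale, below the pooled SD of 0.41 between replicates of the 11 groups of 22Rv1 with 2 libraries. The 0.2% group was lowest for miR-338-3p by only 0.01, with 24.7 ± 2.04 CPM at 0% O2. For miR-338-5p the same group was highest through replicate 1 at 57.2 CPM, while replicate 2 had 12.01 CPM. No opposite behaviour of the arms is read from these orders.

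In PC-3 both arms were near the limit of detection. miR-338-5p had 0 to 4 counts per library, with 5 of 12 normoxia and 3 of 12 hypoxia libraries at 0. It summed to 13 counts in normoxia and 10 in hypoxia, or 0.362 and 0.323 CPM by library size, a ratio of 0.891 with a 95% interval of 0.35 to 2.20. The same pooled ratio in 22Rv1, from 760 and 154 counts, was 4.68 (95% interval 3.93 to 5.60). Intervals of this kind are exact, cover counting error only and not the spread between cultures, and reads without molecular identifiers are not independent molecules.

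miR-338-3p had 0 to 9 counts per PC-3 library and summed to 45 counts in normoxia and 39 in hypoxia. The ratio by library size was 1.00 (95% interval 0.637 to 1.58), against 1.05 (0.954 to 1.15) in 22Rv1. Neither arm reached 5 CPM in any PC-3 library, so neither entered the fit of PC-3 alone and no fitted hypoxia change is given for that line. At these depths a change of miR-338-5p in PC-3 beyond the interval above was not seen, and a smaller one was not detectable.

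The lines themselves differed in normoxia, a contrast other than the hypoxia response, though it uses the same normoxia libraries. miR-338-3p had 1.38 ± 0.941 CPM in PC-3 (SD, n = 12; lowest 0, median 1.11, highest 2.96), against 25.4 ± 5.29 CPM in 22Rv1. miR-338-5p had 0.436 ± 0.508 CPM in PC-3 (SD, n = 12; lowest 0, median 0.330, highest 1.36), against 4.84 ± 2.72 CPM in 22Rv1. Every 22Rv1 normoxia library was above every PC-3 normoxia library for each arm, as was the case for 18.9% of the 1006 entries. In the edgeR fit over all 47 libraries and the 613 miRNAs that reached 5 CPM in at least 2 of them, PC-3 minus 22Rv1 was -4.25 on the log2 scale for miR-338-3p (SE 0.25) and -3.62 for miR-338-5p (SE 0.55). Both arms entered that fit only through their 22Rv1 libraries, so no p-value is taken from it. In the same edgeR quasi-likelihood test with no filter on low counts, over all 1006 entries, the difference was -4.15 for miR-338-3p (SE 0.26, Benjamini-Hochberg adjusted p = 1.76e-16) and -3.52 for miR-338-5p (SE 0.55, adjusted p = 9.74e-07).

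Both arms were thus lower in PC-3, in a test where 72.8% of all entries were called and 37.6% were called lower in PC-3. With the filter these shares were 86% and 46.3%, so a call between the lines is common. Counts pooled over normoxia gave a 22Rv1 to PC-3 ratio of 25.01 for miR-338-3p (95% interval 18.5 to 34.6) and 16.2 for miR-338-5p (9.17 to 31.0), by library size.

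The miR-3065 arms on the other strand were plentiful in both lines. In normoxia miR-3065-5p had 317 ± 17.7 CPM in PC-3 (SD, n = 12) and 328 ± 39.1 CPM in 22Rv1 (SD, n = 11). miR-3065-3p had 277 ± 15.7 CPM in PC-3 and 198 ± 35.0 CPM in 22Rv1. In the edgeR test with the filter, which both passed in every library, the log2 difference was -0.06 for miR-3065-5p (SE 0.077, adjusted p = 0.433), which did not pass, and 0.48 for miR-3065-3p (SE 0.079, adjusted p = 9.36e-07), higher in PC-3. With library size alone as the scale, which moved the median of all miRNAs from -0.15 to -0.61, miR-3065-5p was lower in PC-3 (-0.53, adjusted p = 4.81e-05) and miR-3065-3p did not differ past the threshold (0.0047, adjusted p = 0.971). Under that scale the fitted values of the miR-338 arms were -4.71 for 3p and -4.04 for 5p.

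In hypoxia the miR-3065 arms lay near their normoxia levels. In 22Rv1 hypoxia miR-3065-5p had 326 ± 51.1 CPM and miR-3065-3p 184 ± 27.7 CPM (SD, n = 12). Their mean log2 changes over levels were -0.04 and -0.12 in 22Rv1, and 0.10 and 0.04 in PC-3. miR-3065-5p was higher in hypoxia in 5 of 11 pairs of 22Rv1 libraries and miR-3065-3p in 3 of 11.

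**Figure D3:**
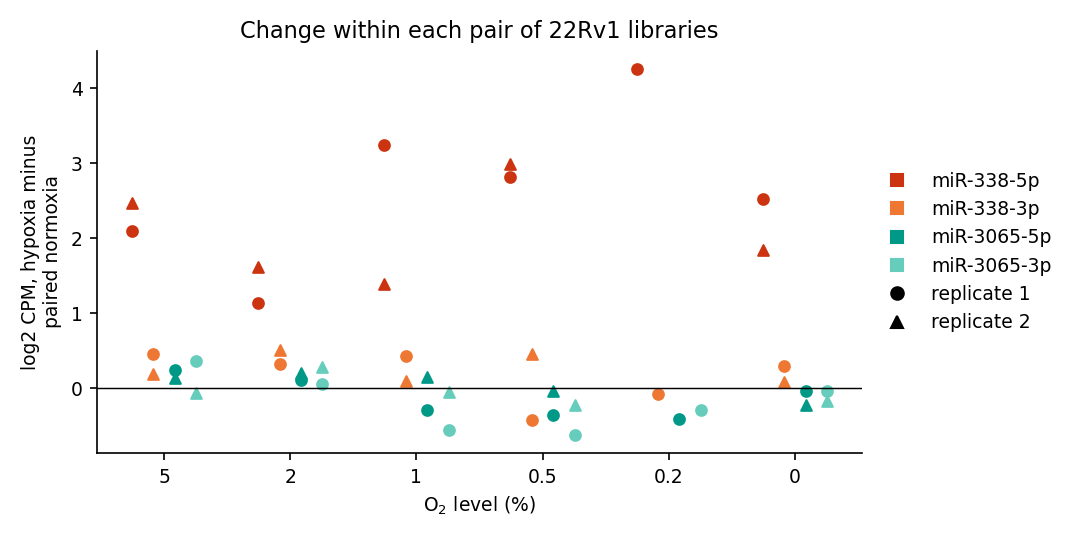
Change in log2 CPM from normoxia to hypoxia within each of the 11 pairs of 22Rv1 libraries, by O2 level, for the 4 mature arms of the locus (circles replicate 1, triangles replicate 2). miR-338-5p is above 0 in 11 of 11 pairs, from 1.13 to 4.26, while the other 3 arms lie around 0.

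Since each miR-338 arm is complementary to a miR-3065 arm, reads can be told apart only by strand. The library kit ligates adapters to the RNA ends and so keeps the strand, and whether the counting used it is not given in the sources used here. miR-338-5p counts came to 0.149% of miR-3065-3p counts in PC-3 normoxia and 0.133% in PC-3 hypoxia. In 22Rv1 they came to 2.33% in normoxia and 12.4% in hypoxia. miR-338-3p counts came to 0.453% of miR-3065-5p counts in PC-3 normoxia and 0.439% in PC-3 hypoxia. In 22Rv1 the share of this arm was 7.67% in normoxia and 8.37% in hypoxia. Whether any miR-338 counts came from reads of the other strand was not tested.

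In 22Rv1 the 5p strand made up a larger share of the miR-338 counts in hypoxia than in normoxia, which is again a description. In normoxia 154 of 979 miR-338 counts were 5p, or 15.7% (95% exact interval 13.5 to 18.2). In hypoxia 760 of 1673 were 5p, or 45.4% (43.0 to 47.8). By library the share was 8.55% to 36.7% in normoxia and 29.3% to 65.4% in hypoxia, where the median was 42.1%. The ranges met because control replicate 2 of the 1% set reached 36.7%. The 5p arm exceeded the 3p arm in 0 of 11 normoxia libraries and in 3 of 12 hypoxia libraries, which were replicate 2 at 1% O2 (58.6%), replicate 1 at 0.2% O2 (65.4%) and replicate 2 at 0% O2 (52.5%).

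**Figure D4:**
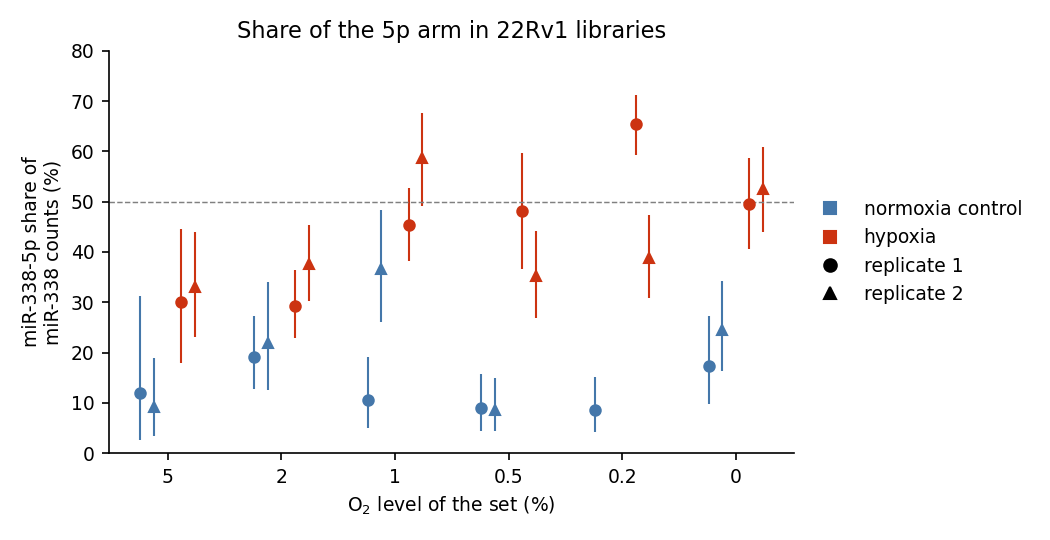
Share of miR-338-5p among miR-338 counts in each 22Rv1 library (percent, with exact 95% intervals as bars) by the O2 level of the set; blue normoxia, red hypoxia, circles replicate 1, triangles replicate 2. The dashed line marks equal arms. Hypoxia libraries run from 29.3% to 65.4% and normoxia libraries from 8.55% to 36.7%.

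A ratio of arms within a library does not depend on library scaling. Within pairs, log2 of 5p over 3p was higher in hypoxia by 2.13 ± 1.02 (SD, n = 11 pairs), or 4.37-fold, and by 0.79 to 4.27 in single pairs. Of the 140 hairpins with both arms tested in 22Rv1, miR-338 had the largest change in either direction. The median over these hairpins was -0.03, with quartiles at -0.23 and 0.15. The next largest was mir-551b at -1.76 ± 1.78, which moved the opposite way and with a wider spread. The miR-338 arms were chosen with their hypoxia response known, so nothing is read from this ranking.

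**Figure D5:**
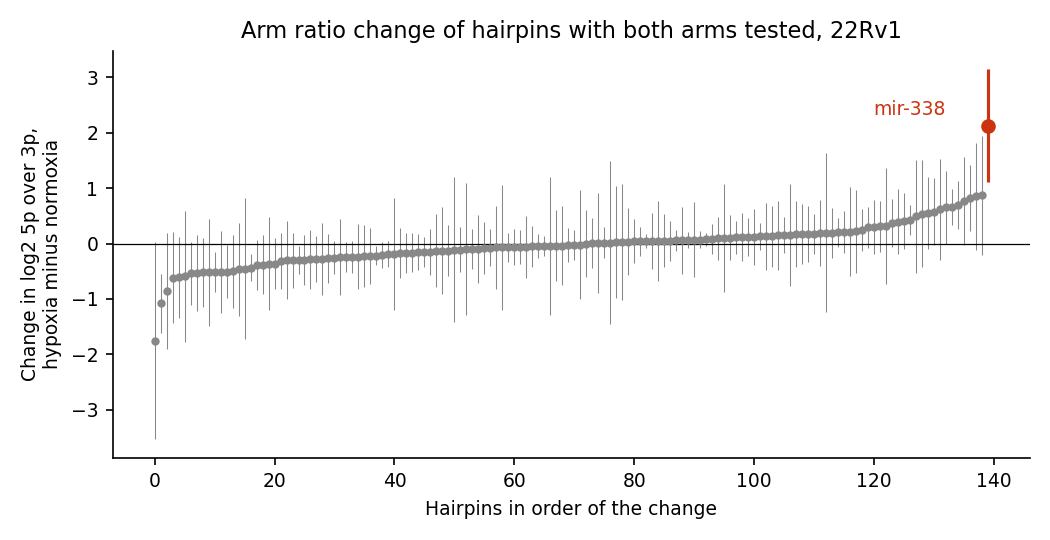
Mean change in log2 of 5p over 3p from normoxia to hypoxia for the 140 hairpins with both arms tested in 22Rv1, in order of the change, with bars of 1 SD over 11 pairs. mir-338 (red) is at 2.13 and the median hairpin at -0.03.

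In PC-3 the 5p share was 22.4% of 58 counts in normoxia (95% exact interval 12.5 to 35.3) and 20.4% of 49 counts in hypoxia (10.2 to 34.3). The intervals overlap over nearly all of their length. In normoxia the mean log2 ratio of 5p over 3p, with 0.5 added to each count, was -1.47 ± 1.83 in PC-3 (SD, n = 12) and -2.48 ± 0.86 in 22Rv1 (SD, n = 11). The difference of 1.02 did not pass a two-sided permutation test (p = 0.108). The PC-3 ratio rests on few counts: without PC-3 normoxia replicate 2 of the 0% set the difference was 1.27 (permutation p = 0.0342), with 1 in place of 0.5 added it was 1.29 (permutation p = 0.011), and with 0.1 added it was 0.29 (permutation p = 0.787).

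Control sets grown for different O2 levels were compared within 22Rv1, as a measure of how far normoxia libraries vary. In edgeR's quasi-likelihood F test over the 6 control groups, the adjusted p was 0.996 for miR-338-5p and 0.996 for miR-338-3p. The unadjusted edgeR p was 0.344 and 0.636. That test called 0 of 552 miRNAs (0%), 3 had an unadjusted p under 0.05, and DESeq2's likelihood ratio test called 0. The 3 are fewer than a threshold of 0.05 gives by chance among 552 miRNAs, so the edgeR test was conservative here. Control values of miR-338-5p nonetheless ran from 2.13 to 10.7 CPM at 3 to 29 counts each, so small differences between controls were not detectable. The high p-values therefore do not show that the control sets agree.

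The miRNAs most like each arm were sought by Pearson's r of log2 CPM over the 23 libraries of 22Rv1, among 311 other miRNAs with a mean of at least 20 CPM. The libraries share condition, depth and scaling, and r is a description. miR-338-5p was most like miR-190b (r = 0.87), miR-27a-5p (0.86) and miR-210-3p (0.84). All 3 were higher in 22Rv1 hypoxia than in normoxia on average: miR-190b had 25.6 ± 6.03 and 63.7 ± 20.5 CPM, and miR-27a-5p 25.5 ± 3.61 and 58.0 ± 23.7 CPM (normoxia then hypoxia, SD, n = 11 and 12). miR-210-3p had 1153 ± 164 and 2377 ± 430 CPM.

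miR-338-5p and its own partner strand had r = 0.17, and r was -0.18 and -0.24 with miR-3065-5p and miR-3065-3p. miR-338-3p was instead most like miR-32-5p (r = 0.86), miR-181c-5p (0.82) and miR-181a-5p (0.78), and had r = 0.25 with miR-210-3p. The arms of this hairpin shared 0 of their 3 most similar miRNAs. In PC-3 the highest r was 0.47 for the 5p arm and 0.45 for the 3p arm, over counts of 0 to 9, and is not read further.

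miR-190b was also low in PC-3, with 2.68 ± 0.973 CPM in normoxia and 2.49 ± 1.17 CPM in hypoxia (SD, n = 12 each), as was miR-338-5p. miR-27a-5p was not low there, with 117 ± 9.91 CPM in normoxia and 145 ± 34.8 CPM in hypoxia. Low counts in PC-3 were therefore not common to the miRNAs that resembled miR-338-5p in 22Rv1.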

How the data were processed

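Small RNA was sequenced from PC-3 and 22Rv1 after adapter ligation with a TruSeq small RNA kit, per the labels' protocols. The deposited table holds raw counts per miRNA. The submitters' processing notes name FastQC and the build hg19. For the aligner, counter and annotation nothing is stated: not given in the sources used here. A second table, CPM scaled by TMM per its name, equals the authors' counts times 1 constant per library (largest relative difference 2.5e-09) and served as an alternative scale.

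Counts were fitted with edgeR 4.0.16 (robust quasi-likelihood, TMM) in R 4.3.3, with 1 mean per group for miRNAs that reached 5 CPM in 2 or more libraries, within 22Rv1 or over both lines. A call is a Benjamini-Hochberg adjusted p under 0.05. DESeq2 1.42.0 was an alternative. Log2 CPM used a prior count of 2. Permutation tests used scipy 1.17.1 with 100000 resamples. The fits were tested on simulated data in which every miRNA had the same spread between replicates. The fitted spread of miR-338-5p in 22Rv1 was larger (34.5% beyond counting error), so that test does not cover this arm. Replicates of a group differed beyond sampling noise.

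Hypoxia and normoxia libraries of the same level and number deviated together in PC-3 (r = 0.301 to 0.665) and only weakly in 22Rv1. There r was 0.397 at 5% O2, 0.136 at 2%, 0.196 at 1%, 0.113 at 0.5% and 0.155 at 0%. The 0.2% set of 22Rv1, with 1 control, could not be checked. The numbers were taken to pair the libraries, and in 22Rv1 this rests mostly on the shared number itself.

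Named were both arms, the other arms of the locus, miRNAs sharing a seed, the 3 most correlated miRNAs per arm and line, and miR-210-3p. In the report those of PC-3 are given by the highest r. Members and lists were chosen with earlier results of these data known. Sequences were read from RefSeq GRCh38.p14 by name. The tables hold no coordinates.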

Additional observations from a re-analysis of the deposited data

How the results depend on the processing

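The mean log2 change of miR-338-5p in 22Rv1 stayed between 2.28 and 2.50 over 8 alternatives (scaling, filters, DESeq2, the replicate block and, added after seeing the data, leaving out the 3 libraries that stood apart), and between 2.12 and 2.56 when each library was left out. The number of single levels at which miR-338-5p was called ranged from 0 to 5 of 6 with the setting. The share of all miRNAs called at single levels is given only for the main fit and the block. Counts under different settings are therefore not comparable, and nothing is read from them. For miR-338-3p the mean change was 0.07 to 0.18 over the alternatives and 0.06 to 0.24 with 1 library left out. With the replicate block the mean change was 2.50 for miR-338-5p and 0.18 for miR-338-3p, and the block called 88 miRNAs higher and 76 lower in 22Rv1, against 42 and 33 without it. Library size alone called 20 higher. The cause of these shifts was not tested.

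PC-3 minus 22Rv1 in normoxia ranged from -4.30 to -3.47 for miR-338-5p and from -4.96 to -4.07 for miR-338-3p with 1 library left out, and from -4.04 to -3.37 and -4.71 to -4.03 over 10 other settings. Except in the fit without a filter, both arms entered these fits only through 22Rv1, so they do not bear on the test. With library size alone miR-3065-5p was -0.53 and miR-3065-3p 0.0047. The difference of the lines in arm ratio ranged from 0.67 to 1.27 with 1 library left out, the highest being without PC-3 normoxia replicate 2 of the 0% set, and was 1.29 with 1 and 0.29 with 0.1 added to each count. Nothing links libraries of different lines beyond a shared level and number, and matching them by these as a replicate block gave 0.89 (exact permutation p = 0.219, 11 matches). The change in arm ratio in 22Rv1 hypoxia ranged from 1.92 to 2.26 with 1 library left out.

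With the replicate number as a block over all levels, added after seeing the data, the control sets of 22Rv1 gave an adjusted p of 0.998 for each arm in edgeR, with 0 of 552 miRNAs called and 11 at an unadjusted p under 0.05. Without the single 22Rv1 control for 0.2% O2 the mean is over the other levels. In PC-3 the arms' 0 to 9 counts per library allow no statement on a small change of either arm.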
